A study of Mus musculus with 7 samples.

Results

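The proteasome subunit genes of the mouse were followed in mini-oocytes. These are cells with oocyte features, obtained by forcing oocyte transcription factors in mouse embryonic stem cells (mESCs). Members were chosen by name alone: every gene whose symbol is Psm followed by a letter from a to g and a number, which gave 48 of the 55364 genes in the table. RNA-seq values were available for 7 libraries. The 4F set consists of Nobox, Figla, Tbpl2 and Lhx8, and samples of 4F-mini-oocytes were taken at day 7 (n = 2, pools of 1000 cells) and day 21 (n = 3, pools of 10 cells). In 8F-mini-oocytes 8 factors were forced, the same 4 with Stat3, Dynll1, Sub1 and Sohlh1, and samples were taken at day 21 (n = 2, pools of 10 cells). Both lines came from BVSC H18, a female mESC line of hybrid 129/C57BL6 background, and no other parental line was used, so the spread between libraries does not include a spread between parental lines. The paper states that 8F-mESCs carry an Npm2-mCherry reporter. Between 8F and 4F, the factors and the derived line cannot be told apart. All groups were grown in a medium with SCF, the kinase inhibitor Y-27632 and Shield1, a ligand that keeps factors fused to a destabilization domain from being degraded, and Shield1 was left out of fresh medium in the last part of the culture before day 21.

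The proteasome is the protease that degrades proteins tagged with ubiquitin. Its core particle is a barrel of 2 outer rings of alpha subunits and 2 inner rings of beta subunits, of which Psmb5, Psmb6 and Psmb7 carry the active sites. A cap with 6 ATPases in its base and a lid above it recognises, unfolds and feeds in the substrate, and other activators can sit on the core in its place. Immune cells, or cells that sense interferon, swap the active beta subunits for Psmb8, Psmb9 and Psmb10, thymus cortex uses Psmb11, and spermatocytes replace an alpha subunit with Psma8. Oocytes store proteins and transcripts for the early embryo, in which ubiquitin-dependent degradation of maternal proteins takes place.

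Values are TPM, in which the reads of a gene are divided by its exon length and every library is brought to the same total, so that levels can be set beside each other between genes. A gene was tested when it reached 1 TPM in at least 2 of the 7 libraries, on log2(TPM + 1) with limma, and called when its adjusted p was under 0.05 over all 21780 genes tested. Of the 48 members, 46 were tested, and Psmb8 and Psmb9 were not. The labels do not say whether libraries of a group came from separate cultures, so p-values measure only the spread between these samples, which may be technical. The day, the number of pooled cells and the leaving out of Shield1 from fresh medium changed together and cannot be told apart. Reads on genes, recovered from the steps of the lowest values, ranged from 9051761 to 17190271 per library. The oocyte label was checked with 8 oocyte genes (Zp1, Zp2, Zp3, Gdf9, Bmp15, Npm2, Nlrp5 and Ooep), whose summed level was 5749 and 7461 TPM at day 7, between 28250 and 30770 TPM in 4F-mini-oocytes at day 21, and 23870 and 23500 TPM in 8F-mini-oocytes.

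Proteasome genes were expressed at both days, at levels that differed widely between subunits. Summed over the 48 genes, the level was 3041 and 3286 TPM in the day 7 libraries, 5281, 5482 and 5384 TPM in 4F-mini-oocytes at day 21, and 4915 and 4711 TPM in 8F-mini-oocytes. Every day 21 library lay above both day 7 libraries. The gene with the highest mean was Psmd4, the ubiquitin receptor also called Rpn10, in all 3 groups, at 301, 619 and 397 TPM. Among the 14 constitutive genes of the core particle, the lowest mean belonged to Psmb3 in every group, at 17.6, 29.1 and 26.7 TPM, but its single libraries ranged from 8.64 to 46.0 TPM. The highest core gene changed from group to group: Psmb6 with 115 TPM at day 7, Psma4 with 284 TPM in 4F-mini-oocytes at day 21 and Psmb2 with 264 TPM in 8F-mini-oocytes. Subunits that occupy 1 place each in the same particle therefore differed several-fold in RNA level within a library, between 4.21-fold and 14.4-fold from the lowest to the highest core gene.

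**Figure D1:**
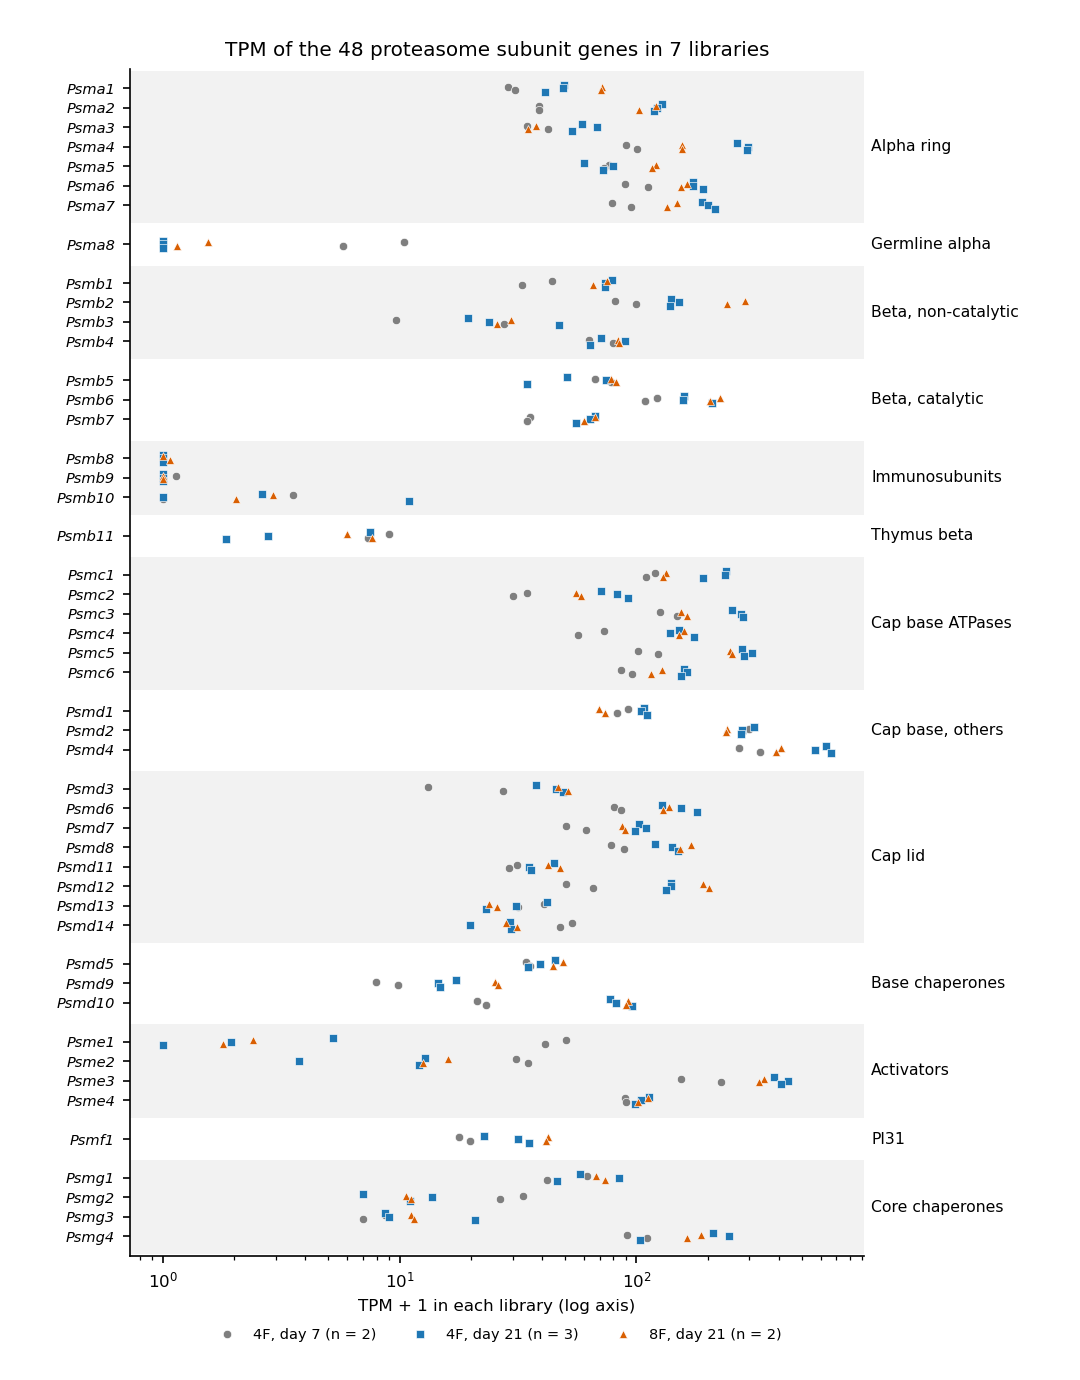
TPM + 1 on a log axis for the 48 genes in each of the 7 libraries, grouped by the place of the subunit. Circles are 4F-mini-oocytes at day 7, squares 4F-mini-oocytes at day 21 and triangles 8F-mini-oocytes at day 21. Psmb8 and Psmb9 sit at or next to 1 (0 TPM), and Psmd4 and Psme3 lie at the right.

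In 4F-mini-oocytes most genes of the core and the cap rose from day 7 to day 21, while Psma8, Psmd14, Psmg2 and the activator genes Psme1 and Psme2 fell. By limma, 25 of the 48 members were higher at day 21 and 5 were lower, beside 25.3% of all tested genes called higher and 15.3% called lower. Groups without overlap were found for 29 tested members on the higher side and 5 on the lower side, beside 33.8% and 22.9% of all tested genes. The median log2 fold change of the 46 tested members was 0.71, and that of all tested genes was 0.17, so the members' median lay 0.54 above it. The scale of the libraries moved these counts. At day 7 the 10 highest genes took 28.5% and 31.8% of the summed TPM, and at day 21 between 10.2% and 13.98%. With median-of-ratios rescaling, which moved the median of all genes to -0.06, 18 members were higher and 6 lower. With quantile normalization they were 11 and 9, and with voom on recovered reads, where the median of all genes was -0.32, they were 11 and 10. Calls past the threshold in all of these rescalings were 10 of the 25 higher ones (Psma2, Psma4, Psma7, Psmc2, Psmc4, Psmc5, Psmd4, Psmd12, Psmd10 and Psme3, with Psmc2 left out of voom) and all 5 lower ones. Psma8 is in each of these counts of lower members, but it passed the filter through its day 7 libraries alone and so had to be lower. In bulk samples a change in the makeup of the cells and a change in RNA per cell cannot be told apart.

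**Figure D2:**
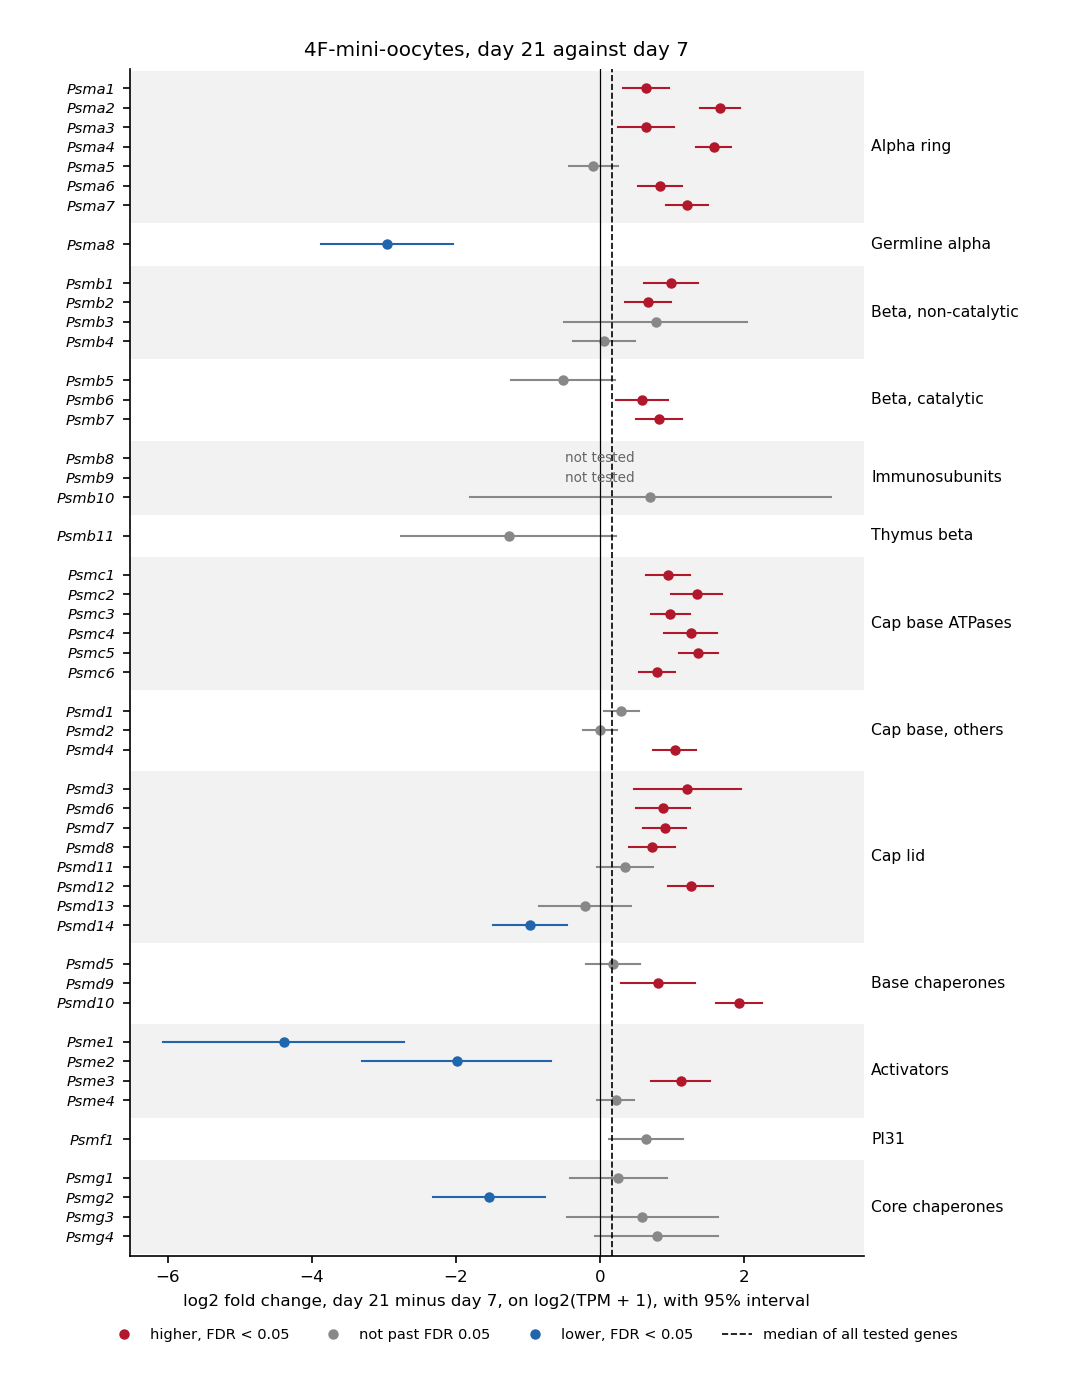
Log2 fold change of each tested member in 4F-mini-oocytes, day 21 minus day 7, on log2(TPM + 1), with its 95% interval. Filled points in red and blue are past FDR 0.05, grey ones are not, and the dashed line is the median of all tested genes. The 6 base ATPases lie to the right of it together, and Psme1, Psma8, Psme2, Psmg2 and Psmd14 lie to the left.

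The alpha ring closes and opens the channel of the core. Of its 7 genes, 6 were higher at day 21 in 4F-mini-oocytes, with Psma5 not called, beside 25.3% of all tested genes called higher. Psma2 stood at 37.7 and 37.8 TPM at day 7 and at 128, 121 and 118 TPM at day 21, a 3.24-fold ratio of means (log2 fold change 1.67, SE 0.11, adjusted p = 0.000133). Psma4 stood at 89.1 and 99.3 TPM at day 7 and at 265, 295 and 291 TPM at day 21, 3.01-fold higher (log2 fold change 1.58, SE 0.10, adjusted p = 0.000114). In 4F-mini-oocytes, both genes had no day 21 library below 118 TPM and no day 7 library above 99.3 TPM. Psma5 was at 75.8 and 71.8 TPM at day 7 and at 59.3, 78.9 and 71.2 TPM at day 21, so these groups overlapped. Psma7, whose place Psma8 takes in that form of the core, rose 2.33-fold, while Psma1 and Psma3 rose 1.58-fold each and lost their calls with all 3 rescalings.

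Psma8, the alpha subunit of the spermatoproteasome, which is known from meiotic prophase in males, was highest at day 7. It stood at 9.40 and 4.76 TPM at day 7, at 0 in all 3 day 21 libraries of 4F-mini-oocytes, and at 0.55 and 0.142 TPM in 8F-mini-oocytes. Against the level of 3 reads per library, 0.274 TPM on average, its day 21 level in 4F-mini-oocytes was at least 25.9-fold lower. Psma8 passed the filter through its day 7 libraries alone, so it had to differ, and its call (adjusted p = 0.00143) adds nothing to the levels. It made up 10.7% and 4.83% of the summed TPM of Psma7 and Psma8 at day 7. Genes of meiotic prophase were also higher in the first day 7 library than in the other: Stra8, an inducer of meiosis, was at 24.5 and 1.38 TPM at day 7 and at 0 in the 5 day 21 libraries, and Rec8, the meiotic cohesin, was at 9.03 and 6.92 TPM and then at or under 0.0585 TPM. Of the other meiotic prophase genes checked, Sycp1, Sycp3 and Dmc1 overlapped between the days in 4F-mini-oocytes and were not called. Sycp3 was at 61.7 and 50.5 TPM at day 7 and at 52.3, 19.8 and 49.8 TPM at day 21. Spo11 was too low to test. The part of these genes in the result for Psma8 was not tested.

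Of the 7 constitutive beta genes, 4 were higher at day 21 and none was lower, beside 25.3% and 15.3% of all tested genes. Psmb6, which cleaves after acidic residues, stood at 121 and 108 TPM at day 7 and at 159, 157 and 208 TPM at day 21 (log2 fold change 0.59, SE 0.15, adjusted p = 0.0214), but with quantile normalization its change was -0.03, and the call was lost in 9 of the 17 other settings. Psmb7, the trypsin-like subunit, was at 34.4 and 33.6 TPM and then at 66.1, 62.8 and 54.6 TPM, 1.80-fold higher (adjusted p = 0.00342). Psmb5, the chymotrypsin-like subunit, was at 65.8 and 77.3 TPM and then at 49.7, 73.4 and 33.6 TPM, and this difference did not pass the test (adjusted p = 0.223). Psmb6 and Psmb7 had all day 21 libraries above those of day 7, and the libraries of Psmb5 overlapped. Reads of Psmb7 and Psmb5 are shared in part with other genes, since 11.8% of the exon bases of Psmb7 overlap Nek6 on the opposite strand and 12.1% of those of Psmb5 overlap the microRNA gene Mir686.

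The immunoproteasome genes were at or near 0. Psmb8 stood at 0 in 6 libraries and at 0.0696 TPM in 1 library of 8F-mini-oocytes, which is below the 0.157 TPM that 3 reads would give there. Psmb9 stood at 0.139 TPM in 1 day 7 library and at 0 in the other 6 libraries. Psmb8 made up at most 0.0859% of the summed TPM of Psmb5 and Psmb8, and Psmb9 at most 0.115% of that of Psmb6 and Psmb9. Psmb10 was detected unevenly, at 2.54 and 0 TPM at day 7, at 1.63, 0 and 9.93 TPM in 4F-mini-oocytes at day 21, and at 1.91 and 1.04 TPM in 8F-mini-oocytes. Its share of the summed TPM of Psmb7 and Psmb10 ranged from 0 to 15.4%, and the spread within 4F-mini-oocytes at day 21 was larger than any difference between groups (adjusted p = 0.629 for day 21 against day 7). Psmb11, the thymus subunit, stood at 8.03 and 6.32 TPM at day 7, at 6.504, 1.78 and 0.846 TPM in 4F-mini-oocytes at day 21 and at 4.98 and 6.61 TPM in 8F-mini-oocytes, with overlapping groups (adjusted p = 0.157). Markers of immune cells were low as well: Tyrobp and Cd3e were at 0 in all 7 libraries, Ptprc did not exceed 0.116 TPM, and Csf1r reached 5.56 TPM at day 7.

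In the mm10 genome, Psmb8 (17:34197721-34201454, plus strand) and Psmb9 (17:34181987-34187764, minus strand) lie 9956 bases apart, and Psmb5 (14:54614119-54618022, minus strand) and Psmb11 (14:54621433-54629556, plus strand) lie 3410 bases apart. Psmb5 was above Psmb11 in all 7 libraries, and Psmb8 and Psmb9 were both at 0 in 5 of them. Exons of Psmb9 overlap those of Tap1 on the opposite strand over 212 bases, and Tap1, the peptide transporter of the antigen pathway, did not exceed 0.512 TPM.

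In the cap, 12 of the 17 genes were higher at day 21 in 4F-mini-oocytes and 1 was lower, beside 25.3% and 15.3% of all tested genes. All 6 ATPase genes of the base, whose products pull the substrate into the core, were higher, by 1.75-fold for Psmc6 to 2.601-fold for Psmc2, with adjusted p-values between 0.000281 and 0.00176. Their summed level was 535 and 559 TPM at day 7 and 1145, 1200 and 1173 TPM at day 21, and the groups did not overlap for any of the 6. Under the rescalings their log2 fold changes were smaller but stayed above 0, and Psmc1 and Psmc6 lost their calls with quantile normalization and voom, and Psmc3 with quantile normalization. Of the other base genes, Psmd4 rose 2.06-fold (adjusted p = 0.00103). Psmd2, the scaffold subunit Rpn1, was at 299 and 278 TPM at day 7 and at 312, 278 and 276 TPM at day 21, and Psmd1, the scaffold subunit Rpn2, was not called either (adjusted p = 0.0558). With median-of-ratios rescaling, Psmd2 was lower at day 21, by -0.34 on the log2 scale.

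The lid holds Psmd14, also called Rpn11, the enzyme that cuts ubiquitin chains off the substrate. It was the only one of the 17 cap genes called lower. Psmd14 stood at 52.6 and 46.5 TPM at day 7 and at 28.2, 18.8 and 28.6 TPM at day 21 in 4F-mini-oocytes, 1.97-fold lower (log2 fold change -0.97, SE 0.22, adjusted p = 0.0125). In 8F-mini-oocytes it was at 27.1 and 30.4 TPM. Without the first day 7 library its adjusted p was 0.0804, and the other rescalings and left-out libraries kept the call. Set against the median of the other 7 lid genes in the same library, which removes any common scale, Psmd14 stood at 1.07 and 0.769 at day 7, at 0.277, 0.172 and 0.292 in 4F-mini-oocytes at day 21 and at 0.316 and 0.344 in 8F-mini-oocytes. All 5 day 21 ratios lay below both day 7 ratios. Psmd14 was picked for this ratio after its fall was seen, and 5 of the other lid genes were called higher. The ratio therefore describes the same difference and adds no separate support. Of these 7 lid genes, Psmd3, Psmd6, Psmd7, Psmd8 and Psmd12 rose, with the call of Psmd3 lost in 9 of the 17 other settings, and Psmd11 and Psmd13 were not called. Psmd12 was the only one of them to keep its call in all 3 rescalings, and went from 49.3 and 64.5 TPM to 139, 139 and 132 TPM (2.40-fold, adjusted p = 0.000639).

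The largest rise of any member was that of Psmd10, also called gankyrin, a chaperone that holds an ATPase while the base is assembled. It stood at 20.3 and 22.2 TPM at day 7, at 76.6, 81.2 and 94.96 TPM in 4F-mini-oocytes at day 21 and at 91.1 and 89.4 TPM in 8F-mini-oocytes. The day 21 level in 4F-mini-oocytes was 3.97-fold the day 7 level (log2 fold change 1.93, SE 0.13, adjusted p = 0.000137), and the call remained with each of the 17 other settings. Psmd9, a further base chaperone, rose 1.85-fold (adjusted p = 0.0238), a call lost in 8 of these settings, and 25.5% of its exon bases overlap the noncoding gene Gm26745. Psmd5 was not called. Of the 4 core chaperones, which build the alpha ring, Psmg2 fell from 32.1 and 25.5 TPM to 6.02, 12.7 and 10.0 TPM (3.00-fold lower, adjusted p = 0.0101), and without the first day 7 library its adjusted p was 0.0746. Psmg1, the partner of Psmg2, was at 61.1 and 40.8 TPM at day 7 and at 56.7, 83.1 and 45.4 TPM at day 21, with overlapping groups. Psmg3 and Psmg4 were not called. Psmf1, which encodes the inhibitor PI31, was at 16.8 and 18.8 TPM at day 7 and at 21.7, 30.5 and 34.2 TPM at day 21 and missed the threshold (adjusted p = 0.0540).

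The activators moved in opposite directions. Psme1 and Psme2 encode the alpha and beta chains of PA28, the interferon-induced activator that works with the immunoproteasome in the cytoplasm, Psme3 encodes the nuclear PA28 gamma, and Psme4 encodes PA200. Psme1 stood at 49.4 and 40.2 TPM at day 7, at 4.25, 0.938 and 0 TPM in 4F-mini-oocytes at day 21 and at 1.40 and 0.801 TPM in 8F-mini-oocytes. Every day 21 library lay far below both day 7 libraries, and the fall in 4F-mini-oocytes was 25.9-fold in mean TPM (log2 fold change -4.40, SE 0.70, adjusted p = 0.00323). The size of this ratio rests on 1 library, since without the first day 21 library it was 95.6-fold. Psme2 was at 30.1 and 34.0 TPM at day 7, at 11.7, 2.74 and 11.1 TPM in 4F-mini-oocytes at day 21 and at 15.0 and 11.54 TPM in 8F-mini-oocytes. Its fall was 3.76-fold (log2 fold change -1.99, SE 0.55, adjusted p = 0.0272). The groups did not overlap, but without either day 7 library the adjusted p was over the threshold, at most 0.141, and it was 0.075 without either 8F library. The call was also lost with no filter and with only the 2 groups compared.

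Psme3 stood at 153 and 227 TPM at day 7, at 379, 434 and 408 TPM in 4F-mini-oocytes at day 21 and at 344 and 328 TPM in 8F-mini-oocytes. It rose 2.14-fold in 4F-mini-oocytes (log2 fold change 1.12, SE 0.17, adjusted p = 0.00283) and kept its call under each of the 17 other settings. Its share of the summed TPM of the 3 PA28 genes was 65.7% and 75.4% at day 7, 95.95%, 99.2% and 97.4% in 4F-mini-oocytes at day 21, and 95.4% and 96.4% in 8F-mini-oocytes. Psme4 was at 88.6 and 89.4 TPM, then at 112, 103 and 97.3 TPM, and at 111 and 100.3 TPM in 8F-mini-oocytes. All day 21 libraries of Psme4 lay above those of day 7, but the difference was not called (adjusted p = 0.153) and its sign turned with quantile normalization (-0.40) and with voom (-0.31).

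**Figure D3:**
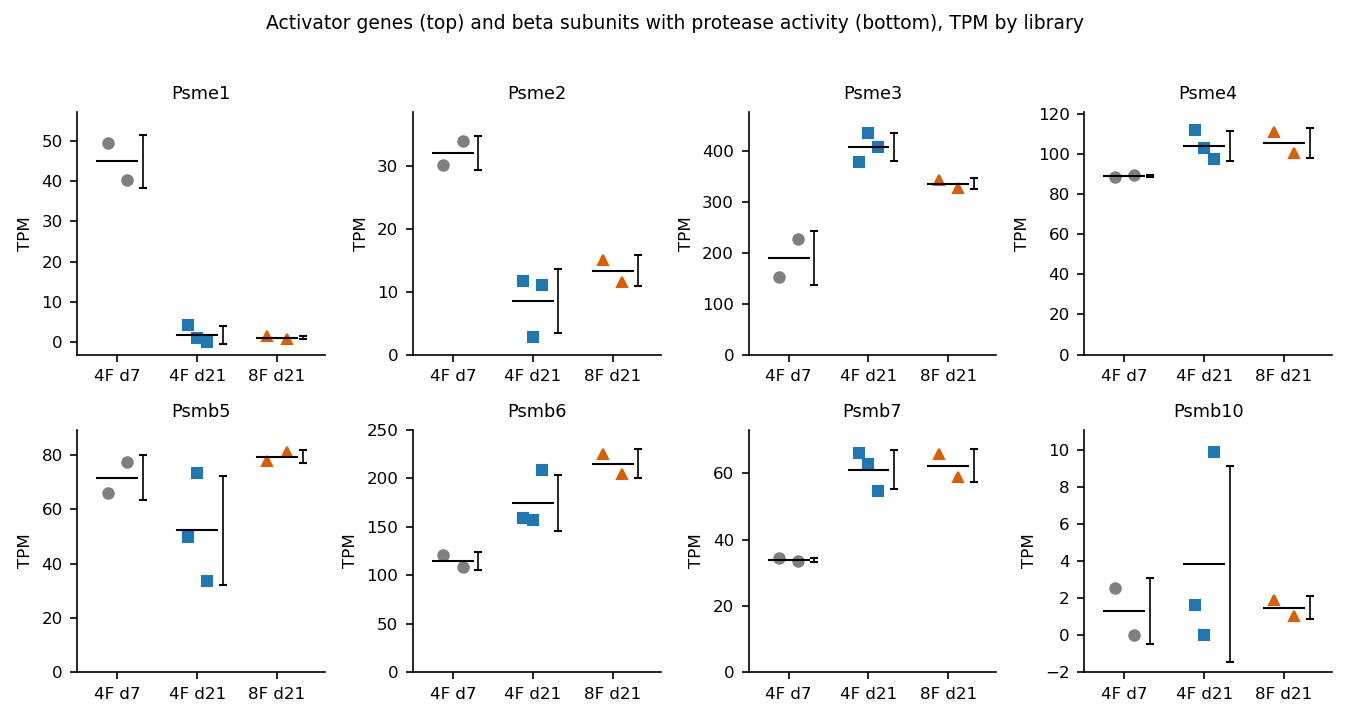
TPM of the 4 activator genes (top) and of the catalytic beta genes with Psmb10 (bottom) in each library, on linear axes. Points are libraries, horizontal lines are group means, and bars are the SD (n = 2, 3 and 2). Psme1 and Psme2 are highest at day 7, and Psme3 is higher in the 5 day 21 libraries than in either day 7 library.

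Psme1 (14:55578123-55581529, plus strand) and Psme2 (14:55587441-55591113, minus strand) lie 5911 bases apart in mm10, with opposite strands. The 250 bases before the RefSeq start of both genes are shown because both fell, beside that of Psmb8, which was at or near 0 in every library, and that of Psmd12, which rose in every rescaling. Sequences are from RefSeq on GRCm38.p6, written in the direction of transcription. They are chr14:55578244-55578493 (plus strand) for Psme1, chr14:55591102-55591351 (minus strand, the outer of 2 starts) for Psme2, chr17:34197945-34198194 (plus strand) for Psmb8 and chr11:107479278-107479527 (plus strand) for Psmd12. Capitals mark matches to TGACNNNGC, the core of the antioxidant response element, or to TTCNNNGAA, the gamma-activated site of STAT factors, on either strand.
Psme1: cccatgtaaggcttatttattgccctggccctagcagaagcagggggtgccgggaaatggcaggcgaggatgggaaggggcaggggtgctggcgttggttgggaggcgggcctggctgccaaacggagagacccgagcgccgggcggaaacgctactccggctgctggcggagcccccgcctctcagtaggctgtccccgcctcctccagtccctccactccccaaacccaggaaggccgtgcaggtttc
Psme2: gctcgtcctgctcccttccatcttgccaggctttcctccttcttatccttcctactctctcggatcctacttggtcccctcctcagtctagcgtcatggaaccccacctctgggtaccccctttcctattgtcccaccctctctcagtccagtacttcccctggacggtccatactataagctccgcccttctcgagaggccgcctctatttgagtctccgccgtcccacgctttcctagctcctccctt
Psmb8: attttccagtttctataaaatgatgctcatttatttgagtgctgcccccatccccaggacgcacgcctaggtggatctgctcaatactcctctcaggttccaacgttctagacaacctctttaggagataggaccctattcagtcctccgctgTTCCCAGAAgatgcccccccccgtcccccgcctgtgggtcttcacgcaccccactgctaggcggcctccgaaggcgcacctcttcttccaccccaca
Psmd12: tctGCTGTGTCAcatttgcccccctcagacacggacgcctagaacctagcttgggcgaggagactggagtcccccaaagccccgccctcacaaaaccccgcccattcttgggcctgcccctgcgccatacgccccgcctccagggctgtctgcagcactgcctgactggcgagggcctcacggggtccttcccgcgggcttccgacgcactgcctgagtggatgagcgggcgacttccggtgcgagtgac

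The Psmb8 sequence holds TTCNNNGAA from 97 to 89 bases before the start, and that of Psmd12 holds TGACNNNGC on the reverse strand, from 247 to 239 bases before the start. The Psme1 and Psme2 sequences hold neither. Over windows of 250 bases before to 50 after the start, 40 of the 48 members had an entry, with 43 windows. TGACNNNGC was in 6 of the 43 (14%), beside 12.4% of all 32817 windows, and TTCNNNGAA was in 3 (6.98%), beside 8.29%. CCAAT was in 14 (32.6%), beside 37.4%, and TAATTG, the core motif of Nobox, was in 0, beside 8.00%. None of these motifs contains another. The members with TGACNNNGC were Psmd9, Psme4, Psmb6, Psmd12, Psmc6 and Psmb5, and those with TTCNNNGAA were Psmd2, Psmg1 and Psmb8. Of the 10 members that were higher at day 21 in 4F-mini-oocytes in all rescalings, only Psmd12 had TGACNNNGC. The window of Psmb9, also at or near 0 in every library, had no TTCNNNGAA. The sequences shown therefore do not stand for rising or silent members in general. No test was made of these shares. Psma8, Psmb1, Psmb2, Psmb7, Psmc3, Psmd3, Psmd7 and Psmg2 had no entry.

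The class I antigen pathway uses the peptides that the proteasome makes. Of 12 listed genes of this pathway, 5 were lower at day 21 in 4F-mini-oocytes, 3 were higher, and Tap1 and Tap2 were too low to test. Of all tested genes, 15.3% were called lower and 25.3% higher. Erap1, among the 5 lower ones, passed the filter through its day 7 libraries alone (4.60 and 1.29 TPM), so its direction was fixed. H2-D1, a class I heavy chain, was 10.0-fold lower by mean TPM, with 26.7 and 17.7 TPM at day 7 and 2.23, 3.12 and 1.29 TPM at day 21 (log2 fold change -2.86, adjusted p = 0.00212). Tapbp, which loads the peptides, was at 16.3 and 23.6 TPM and then at 6.43, 2.76 and 5.39 TPM (log2 fold change -1.87, adjusted p = 0.0102), a call lost without the second day 7 library. Irf1, a transcription factor known for inducing class I and immunoproteasome genes, went the other way, from 16.2 and 13.9 TPM to 72.0, 71.0 and 84.8 TPM (log2 fold change 2.26, adjusted p = 0.000206). Calr, a chaperone of the endoplasmic reticulum, was at 428 and 515 TPM and then at 1459, 1559 and 1487 TPM (log2 fold change 1.67, adjusted p = 0.000133). Markers of trophoblast also differed between the days: the summed level of 6 of them was 1144 and 1660 TPM at day 7 and between 27.4 and 137 TPM at day 21. Of these, Krt8, Krt18, Krt19 and Gata3 were lower at day 21 in 4F-mini-oocytes, Eomes overlapped between the groups, and Cdx2 was at 0 in both day 7 libraries. Krt19 and Gata3 passed the filter through their day 7 libraries alone and so had to be lower. Most of the sum came from Krt8 and Krt18, keratins of simple epithelia. The part of cells with these markers in the results for H2-D1, Psme1 and Psme2 was not tested.

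Of 12 listed partners of the proteasome, 6 were higher at day 21 in 4F-mini-oocytes, none was lower, and Paaf1 was not analysed. Of all tested genes, 25.3% were called higher and 15.3% lower. Akirin2, which guides the proteasome into the nucleus, was at 268 and 302 TPM at day 7 and at 1079, 1056 and 959 TPM at day 21 (log2 fold change 1.86, SE 0.12, adjusted p = 0.00012). Adrm1, a ubiquitin receptor of the base, was at 59.5 and 44.8 TPM and then at 116, 141 and 133 TPM (log2 fold change 1.31, adjusted p = 0.000959). Both kept their calls under the 17 other settings. Of 6 regulators of proteasome genes, 3 were higher and none was lower, beside the same shares of all tested genes. Ngly1 and Ddi2 encode enzymes that process NFE2L1, the factor that induces proteasome genes when the proteasome is impaired. Ngly1 was at 9.06 and 13.3 TPM at day 7 and at 34.7, 33.2 and 34.3 TPM at day 21, and Ddi2 was at 35.1 and 42.6 TPM and then at 111, 93.6 and 93.3 TPM (log2 fold changes 1.55 and 1.34, adjusted p = 0.00115 and 0.000786). Nfe2l1 itself, named here after its values were seen, rose 1.68-fold (adjusted p = 0.00932) and lost the call with each rescaling.

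Of 14 genes for ubiquitin and for delivery to the proteasome, 6 were higher and 3 lower at day 21 in 4F-mini-oocytes. Of all tested genes, 25.3% were called higher and 15.3% lower. Ubqln2, a shuttle factor, was at 24.2 and 11.9 TPM at day 7 and at 61.2, 58.5 and 76.7 TPM at day 21 (log2 fold change 1.87, adjusted p = 0.00294), a 3.63-fold ratio of means that was 5.50-fold without the first day 7 library. Nploc4, a cofactor of the segregase VCP, was at 56.2 and 51.7 TPM and then at 152, 134 and 152 TPM (log2 fold change 1.42, adjusted p = 0.000219). Among the lower ones, Rps27a, which encodes ubiquitin fused to a ribosomal protein, went from 287 and 232 TPM to 45.6, 66.2 and 60.0 TPM (log2 fold change -2.17, adjusted p = 0.000319). Ubb, a polyubiquitin gene, was at 1190 and 1592 TPM at day 7 and at 1275, 1290 and 1231 TPM at day 21, so those groups overlapped.

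At day 21, the proteasome genes of 8F- and 4F-mini-oocytes differed in the balance of the subunits rather than in the sum of the core. The summed level of the 14 core genes was 1498, 1609 and 1591 TPM in 4F-mini-oocytes and 1653 and 1521 TPM in 8F-mini-oocytes, with overlapping groups. That of the 17 cap genes was 2829, 2818 and 2911 TPM in 4F-mini-oocytes and 2307 and 2286 TPM in 8F-mini-oocytes. By limma, 3 of the 48 members were higher in 8F-mini-oocytes (Psma1, Psma5 and Psmb2) and 6 were lower (Psma3, Psma4, Psmc1, Psmc3, Psmd1 and Psmd4), beside 3.95% of all tested genes called higher and 4.41% called lower. Groups without overlap were found for 9 tested members on the higher side and 14 on the lower side, beside 24.1% and 19.8% of all tested genes. The members' median log2 fold change was 0.01, and that of all tested genes was 0.06. With voom the median of all genes was 0.26, and 5 members were higher and 5 lower. All 9 calls were lost without either library of 8F-mini-oocytes, with no trend in the spread, and with the replicate number as a block, and 4 members were called without any single library of 4F-mini-oocytes at day 21. This comparison shares its 4F libraries of day 21 with the one above.

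The higher members were a beta gene and a pair of alpha genes. Psmb2, a beta subunit without an active site, stood at 139, 149.9 and 137 TPM in 4F-mini-oocytes and at 287 and 241 TPM in 8F-mini-oocytes, 1.86-fold higher (log2 fold change 0.88, SE 0.13, adjusted p = 0.0150). Psma5 was at 59.3, 78.9 and 71.2 TPM against 119.7 and 115 TPM (1.68-fold higher, adjusted p = 0.0272). Psma1 was at 48.2, 47.96 and 40.1 TPM against 70.5 and 69.7 TPM (1.54-fold higher, adjusted p = 0.0408). Each of these had both 8F libraries above all 4F libraries.

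The lower members belonged to the alpha ring and to the base of the cap. Psma4 was at 265, 295 and 291 TPM in 4F-mini-oocytes and at 154.6 and 155.5 TPM in 8F-mini-oocytes, 1.83-fold lower (log2 fold change -0.87, SE 0.10, adjusted p = 0.00755). Psmc3 was at 251.3, 275 and 281 TPM against 154 and 162 TPM (1.70-fold lower, adjusted p = 0.0141). Psmc1 was at 239, 236 and 189.7 TPM against 133 and 128 TPM (1.70-fold lower, adjusted p = 0.0215). Psmd4 and Psmd1 were 1.56-fold and 1.51-fold lower, and Psma3 was 1.68-fold lower with an adjusted p of 0.0443. None of the 8 lid genes was called by limma, and 1 of them, Psmd12, had an unadjusted p under 0.05. Psmd14 was at 25.2 TPM on average in 4F-mini-oocytes and 28.7 TPM in 8F-mini-oocytes. None of the 4 activator genes was called, and none had an unadjusted p under 0.05, with a log2 fold change for Psme3 of -0.27 (SE 0.17) and for Psme4 of 0.02 (SE 0.11). For the catalytic genes, Psmb5 was at 77.5 and 80.9 TPM, Psmb6 at 225 and 204 TPM and Psmb7 at 65.9 and 58.8 TPM in 8F-mini-oocytes, and none of them was called. Of all tested genes, 3.95% were called higher and 4.41% lower. The lack of calls in these short lists therefore does not set lid, activator or catalytic genes apart.

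**Figure D4:**
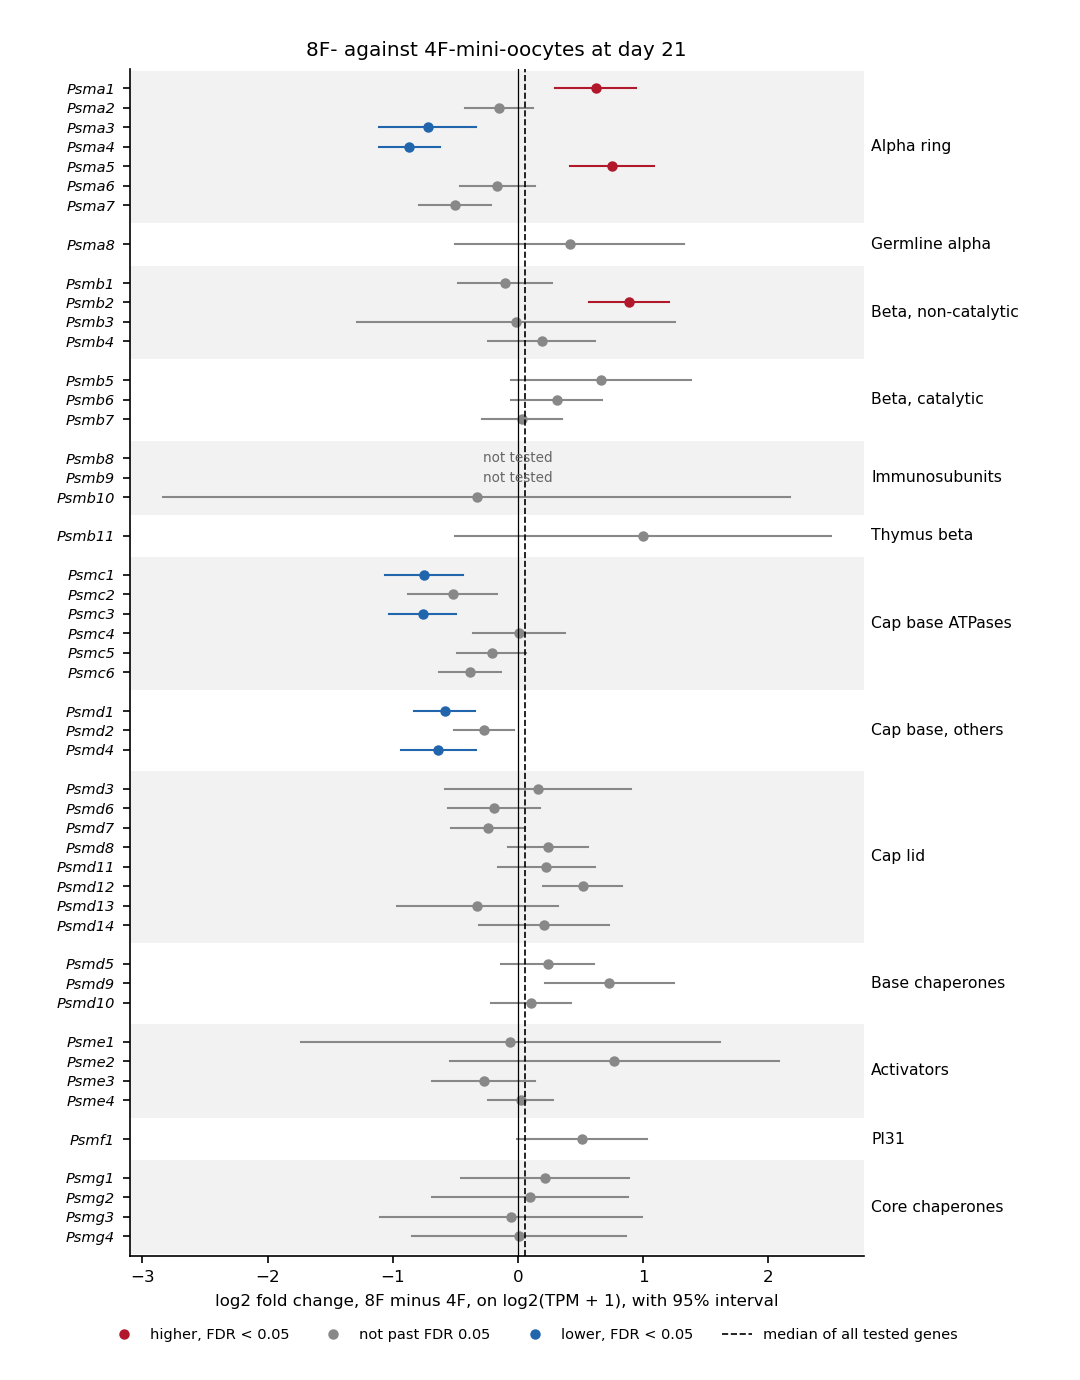
Log2 fold change of each tested member at day 21, 8F- minus 4F-mini-oocytes, on log2(TPM + 1), with its 95% interval. Red and blue points are past FDR 0.05, grey ones are not, and the dashed line is the median of all tested genes. Blue points lie in the alpha ring and the cap base, and the lid and activator genes are grey, as are most tested members.

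Ratios within a library do not depend on its scale, and are given as a description, with no test. The cap genes summed to 1.87 and 1.78 times the core genes at day 7, to 1.89, 1.75 and 1.83 times in 4F-mini-oocytes at day 21, and to 1.40 and 1.503 times in 8F-mini-oocytes. Both 8F ratios lay below the other 5, and without Psmd4, the highest cap gene, they were 1.15 and 1.25 against 1.40 to 1.55. The lid did not share this gap: lid over core was 0.434 and 0.476 in 8F-mini-oocytes and between 0.416 and 0.460 in the other libraries. Within the core, the alpha genes summed to 1.04 and 1.07 times the beta genes at day 7, to 1.59, 1.57 and 1.59 times in 4F-mini-oocytes at day 21 and to 0.967 and 1.008 times in 8F-mini-oocytes. The 3 day 21 libraries of 4F-mini-oocytes stood apart, and the day 7 and 8F libraries lay close to each other. The pair Psma4 over Psma5, chosen after its values were seen, had ratios of 1.18 and 1.38 at day 7, 4.47, 3.74 and 4.09 in 4F-mini-oocytes at day 21 and 1.29 and 1.35 in 8F-mini-oocytes. A pseudogene, Psma5-ps, took between 1.11 and 11.9 TPM, and reads that match it and Psma5 equally well were not counted.

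**Figure D5:**
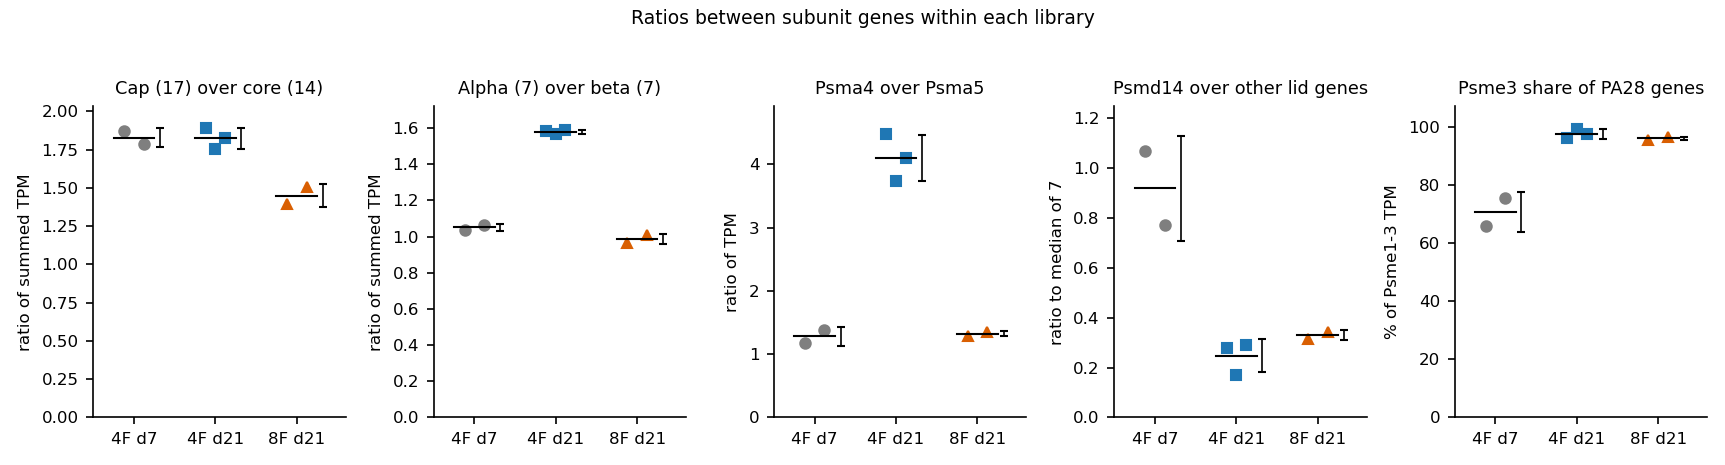
Ratios of summed or single TPM within each library: 17 cap over 14 core genes, 7 alpha over 7 beta genes, Psma4 over Psma5, Psmd14 over the median of the other 7 lid genes, and the share of Psme3 in the 3 PA28 genes (%). Points are libraries, lines are group means, bars are the SD (n = 2, 3 and 2). The 4F libraries of day 21 stand apart in the alpha over beta and Psma4 over Psma5 panels, and the day 7 libraries in the Psmd14 and Psme3 panels.

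Of the other lists at day 21, no partner and no regulator was called by limma between 8F- and 4F-mini-oocytes, with 3 partners and 0 regulators at an unadjusted p under 0.05, while 4 of the 14 ubiquitin and delivery genes were higher and none was lower. Of all tested genes, 3.95% were called higher and 4.41% lower. Rps27a was at 45.6, 66.2 and 60.0 TPM in 4F-mini-oocytes and at 141 and 119 TPM in 8F-mini-oocytes (log2 fold change 1.18, adjusted p = 0.0183). In the class I list, Calr was at 1459, 1559 and 1487 TPM against 662 and 649.7 TPM, and Pdia3 at 519, 566 and 534 TPM against 321 and 303 TPM (log2 fold changes -1.19 and -0.79, adjusted p = 0.00502 and 0.0110). These calls too were lost without either 8F library.

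Set directly against day 7 of 4F-mini-oocytes, 8F-mini-oocytes at day 21 had 24 members higher and 4 lower, beside 24.2% and 13% of all tested genes. Groups without overlap were found for 34 and 8 tested members, beside 43.9% and 28.4% of all tested genes. The day 7 libraries are those of the first comparison, so the counts are not independent of it. Psmd10 was 4.25-fold and Psmd12 3.44-fold higher, and Psmb2 was 2.94-fold higher. Psme1 was 40.8-fold lower (log2 fold change -4.46, SE 0.77, adjusted p = 0.00535), and Psma8, Psmg2 and Psmd14 were the other lower ones. Psma8 had passed the filter through its day 7 libraries alone and so had to be lower, and the call of Psmd14 (1.72-fold, adjusted p = 0.0447) was lost in 9 of the 17 other settings. Psme2 was not called. Psmf1 was 2.30-fold higher here (log2 fold change 1.16, SE 0.24, adjusted p = 0.0103), with 41.1 and 40.6 TPM in 8F-mini-oocytes. The median of all tested genes was 0.24 here and near 0 with the rescalings, where 14 members were higher and 6 lower with median-of-ratios, 9 and 7 with quantile normalization, and 13 and 8 with voom. Without the first library of 8F-mini-oocytes, 11 were higher and 2 lower, and without the second, 14 and 1.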

How the data were processed

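RNA of 7 libraries of 4F- and 8F-mini-oocytes was sequenced after amplification with the SMART-seq Stranded Kit. Per the submitters' notes and the study's methods, the authors used Trim Galore for trimming, HISAT2 for alignment to mm10, bedtools to take out rRNA and featureCounts on GENCODE genes for reads with a unique position, and deposited TPM. No strand option is stated, so overlapping genes share reads, and reads over several genes were counted as fractions. The authors tested counts with edgeR, and those counts were not used here. The methods name different sequencers and read lengths without saying which library ran on which.

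A gene needed 1 TPM or more in 2 or more of 7 libraries (21780 of 55364 genes) and was tested on log2(TPM + 1), a pseudocount of 1, which understates changes of low genes. The test used lmFit and eBayes with trend (limma 3.58.1, R 4.3.3), two-sided, over all 7 libraries in 3 groups, with Benjamini-Hochberg adjustment at FDR 0.05 over all tested genes. Fold ratios are of mean TPM. Reads were recovered from TPM steps and GENCODE vM21 exon lengths, which matched 98.1% of genes and 47 of the 48 members (Psmc2 did not match). Between 77.7% and 83.9% of low values came out as whole reads within 0.02, so recovered reads are estimates, and the TPM of 3 reads covers counting error only, since amplified reads are not independent molecules. The model was tested on simulated data.

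Samples were grouped by the labels. Members and lists were chosen with earlier results of these data known. Genes named with every library are Psma8, Psmb5 to Psmb11, Psme1 to Psme4 and the 3 called members that rose or fell most in each of the first 2 comparisons, and, of each pathway list, the 2 called genes that rose or fell most and had at least 10 TPM; others were added after their values were seen. Some genes of the ubiquitin list that this rule names are not reported here. Other settings were median-of-ratios rescaling, quantile normalization, a filter of 5 TPM or none, a pseudocount of 0.1 or 5, no trend, only the 2 groups compared, a replicate block, voom on recovered reads, and each library left out in turn, 17 in all. Of the fixed marker lists, pluripotent genes summed to 61.1 to 81.9 TPM at day 7 and 123 to 343 TPM at day 21, granulosa genes to at most 5.56 TPM, endothelial genes to 10.8 to 35.7 TPM and meiotic prophase genes to 151 and 75.4 TPM at day 7 and 17.9 to 80.4 TPM at day 21. Most of the pluripotent sum at day 21 was Pou5f1, with means of 27.3 TPM at day 7 and 196 (4F) and 88.1 TPM (8F) at day 21. Esrrb was also higher at day 21, Zfp42 was lower and Nanog was at 0 in every day 21 library.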

Additional observations from a re-analysis of the deposited data

How the results depend on the processing

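For day 21 minus day 7 in 4F-mini-oocytes, the members' median log2 fold change relative to all tested genes was 0.54, and it was 0.68 with no filter, 0.39 with a filter of 5 TPM, 0.18 with quantile normalization and between 0.37 and 0.65 with 1 library left out. For 8F minus 4F at day 21, where 9 members were called, 0 were called with no trend or with a replicate block, and between 0 and 12 with 1 library left out: 0 without either 8F library, 4 without any single 4F library of day 21, and 12 without either day 7 library. At an unadjusted p under 0.05 the settings with 0 calls by limma held 12 to 14 members. The relative median was -0.05, and 0.07 with quantile normalization. For 8F at day 21 minus 4F at day 7, 28 members were called, 16 with quantile normalization and between 13 and 29 with 1 library left out. The relative median there was 0.43, and it was 0.32 with a pseudocount of 0.1, 0.56 with no filter, 0.28 with a filter of 5 TPM, 0.16 with quantile normalization, 0.32 with voom and between 0.28 and 0.44 with 1 library left out. Median-of-ratios rescaling moved the summed TPM of the core to 1026, 1417 and 1451 (4F at day 7, 4F and 8F at day 21), of the cap to 1872, 2581 and 2099, and of the activators to 409.2, 471.9 and 416.6.

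Log2 fold changes that turned and were past the threshold before or after, for day 21 minus day 7, were Psmb6 (-0.03), Psmd2 (-0.55), Psme4 (-0.40) and Uba6 (-0.48) with quantile normalization, Psmd2 (-0.34) with median-of-ratios, and Psmd2 (-0.52), Psme4 (-0.31), Uba6 (-0.46) and Pdia3 (-0.04) with voom, and, for 8F at day 21 minus 4F at day 7, Psmc6 (-0.14) with quantile normalization. Of the other values of single genes, 3852 kept direction and side of the threshold, 335 lost a call and 84 gained one, all in the same direction, and 138 changed sign with no call before or after. Members among the 138 with a rescaling were Psmb4, Psmd1, Psmd5, Psmd11, Psme4 and Psmg1 for day 21 minus day 7, Psmb1, Psmb3, Psmb10, Psme1 and Psmg3 for 8F minus 4F, and Psmb4, Psmb5, Psmc1, Psmc3, Psmd4, Psme4 and Psmg1 for 8F at day 21 minus 4F at day 7. The cause was not tested. Replicate numbers did not pair the samples: deviations of same-numbered libraries correlated between -0.037 and 0.011. With the block, the counts were 25 higher and 5 lower, 0 and 0, and 23 and 2. Depth does not resolve Psmb8 and Psmb9, or Psma8 at day 21 in 4F-mini-oocytes, below 3 reads. With 2 or 3 libraries a group and sequencing runs not named, differences between libraries made at different times cannot be told apart from day or factors.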
